A study of Mus musculus with 6 samples.

Results

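Lactbl1, which encodes the lactamase beta-like protein 1, is described here with its serine lactamase relative Lactb, with Lactb2, a lactamase-like gene of another fold, and with Gm37583, a locus just downstream of Lactbl1 on the same strand. These 4 of the 48397 genes in the count tables were selected with their CPM (counts per 1000000 reads, scaled between libraries) in prolactin and control already known, so the difference between these groups is given for all 4 as a description without a test. All 4 were among the 23924 genes with enough reads to be tested. For Lactbl1 and Gm37583 this rested on the prolactin libraries, as their control reads alone were too few. The samples were isolated pancreatic islets of wild-type mice (C57B6), a mix of endocrine and other cells, of which 3 libraries came from islets cultured with DMSO (control) and 3 from islets cultured with 500 ng/mL of recombinant mouse prolactin, both for 24 h after an overnight recovery. Polyadenylated RNA was sequenced to between 230833584 and 530296257 counted reads per library, with control replicate 1 the deepest. The labels give neither the age nor the sex of the mice, nor whether the replicates were separate animals, so a p-value here reflects only how far these libraries vary, which may be technical.

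Beta-lactamases are bacterial enzymes that break beta-lactam antibiotics, and animals carry distant relatives of both main kinds. The serine kind, to which LACTB and LACTBL1 belong, uses an active-site serine within an SxxK motif. LACTB assembles into filaments in the mitochondrial intermembrane space and has been linked to the level of phosphatidylserine decarboxylase, while LACTBL1 has no well-established function. The metallo kind holds zinc through an HxHxDH motif, and LACTB2 is an endoribonuclease of this fold in the mitochondrial matrix. Prolactin acts on beta cells through the prolactin receptor and STAT5, and islets respond to it in pregnancy.

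In the gene models behind the counts (GENCODE vM10 on mm10), Lactbl1 lies on chromosome 4 from 136622621 to 136639110 on the plus strand, in 8 exons of 2954 bases together. Gm37583 follows it after 471 bases, as a single exon from 136639582 to 136642068 (2487 bases), and GENCODE vM21 classes it as TEC, a locus that still lacks experimental evidence. Lactb lies on chromosome 9 from 66955393 to 66975484 and Lactb2 on chromosome 1 from 13623330 to 13660546, both on the minus strand. No exon of the 4 genes overlaps an exon of another gene on either strand. RefSeq ends Lactbl1 1000 bases earlier than GENCODE does, at 136638110. It also ends Lactb2 earlier, by a larger distance, with the 3′ end at 13625893 instead of 13623330. The 3′ ends of both genes thus differ between annotations, while for Lactb RefSeq has 66955382, near the 66955393 of GENCODE.

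The ends of the transcript models are shown because Lactbl1 and Gm37583 differ there. The capitals mark AATAAA, the hexamer that commonly precedes a poly(A) site, in sequences from GENCODE vM21 (30 bases each, 5′ to 3′, the last bases of the model except for Lactb2, where the window starts at its last AATAAA, 36 bases from the end).
Lactbl1: ctcctccccccagctccaggcaaccacaga
Gm37583: tgtgAATAAAgttgctgtgagcatctgttt
Lactb: atgtttactcttgaAATAAAatcttctgat
Lactb2: AATAAActgtatctgtgttcctaaacagag
The Lactbl1 model holds neither AATAAA nor its common variant ATTAAA anywhere in its 2954 bases. Gm37583 holds AATAAA 3 times and ATTAAA 2 times, the last AATAAA starting 26 bases from its end. In Lactb the last AATAAA starts 16 bases from the end. A hexamer is a match of letters, not a mapped poly(A) site.

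Lactbl1 was barely detected in control islets and stood several-fold higher in each prolactin library. It had 24, 10 and 6 reads in control replicates 1, 2 and 3, and 46, 78 and 100 reads in prolactin replicates 1, 2 and 3. On the CPM scale these were 0.0447, 0.0368 and 0.0224 in control and 0.199, 0.335 and 0.378 in prolactin. The groups did not overlap, and the lowest prolactin library stood 4.44-fold above the highest control library. The means were 0.0346 ± 0.0113 and 0.304 ± 0.094 CPM (SD, n = 3 per group), a log2 change of 3.06 (SE 0.36) or 8.37-fold in the edgeR fit. Within each group the libraries spanned close to the same range, 1.99-fold from lowest to highest in control and 1.90-fold in prolactin, with prolactin replicate 1 the lowest of its group.

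So few reads set the precision. The 6 reads of control replicate 3 have a 95% exact Poisson interval from 2.20 to 13.1 reads and the 100 reads of prolactin replicate 3 one from 81.4 to 122. In CPM, the highest upper bound in control is 0.0677 (replicate 2) and the lowest lower bound in prolactin is 0.145 (replicate 1). These intervals cover counting error only, and they are too narrow if both mates of a read pair were counted.

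Gm37583 showed the same pattern. It had 19, 7 and 6 reads in the control replicates and 43, 78 and 75 in the prolactin replicates, or 0.0354, 0.0258 and 0.0224 CPM against 0.186, 0.335 and 0.283 CPM. Again no prolactin library reached down to a control library, with a 5.25-fold gap between the nearest libraries of the groups. The means were 0.0279 ± 0.0067 and 0.268 ± 0.076 CPM (SD, n = 3 per group), a log2 change of 3.19 (SE 0.34) or 9.14-fold. Among all 23924 tested genes, ordered by log2 change, Gm37583 was number 2 and Lactbl1 number 3 from the top. Number 1 was Tph1, which encodes the peripheral tryptophan hydroxylase of the serotonin pathway, at 4.97 (SE 0.20).

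**Figure D1:**
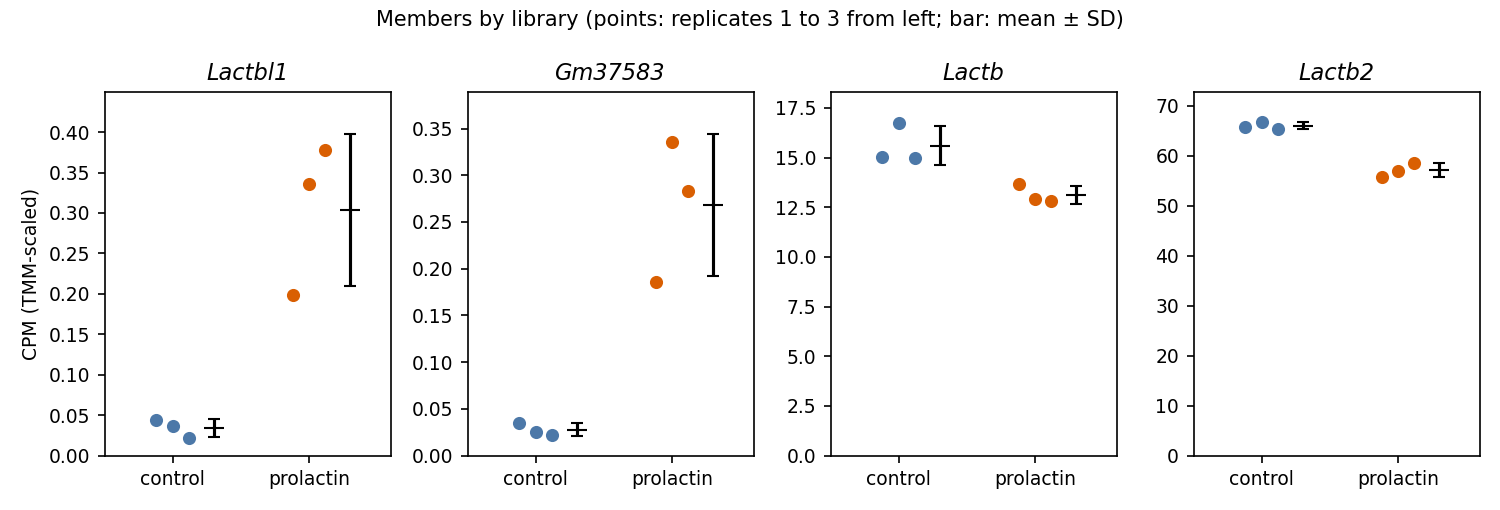
CPM of Lactbl1, Gm37583, Lactb and Lactb2 (y axes, each from 0) in the 3 control and 3 prolactin libraries; points are libraries and bars the mean ± SD. The prolactin points lie above the control points for Lactbl1 (0.199 to 0.378 against 0.0224 to 0.0447 CPM) and Gm37583, and below them for Lactb and Lactb2.

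**Figure D2:**
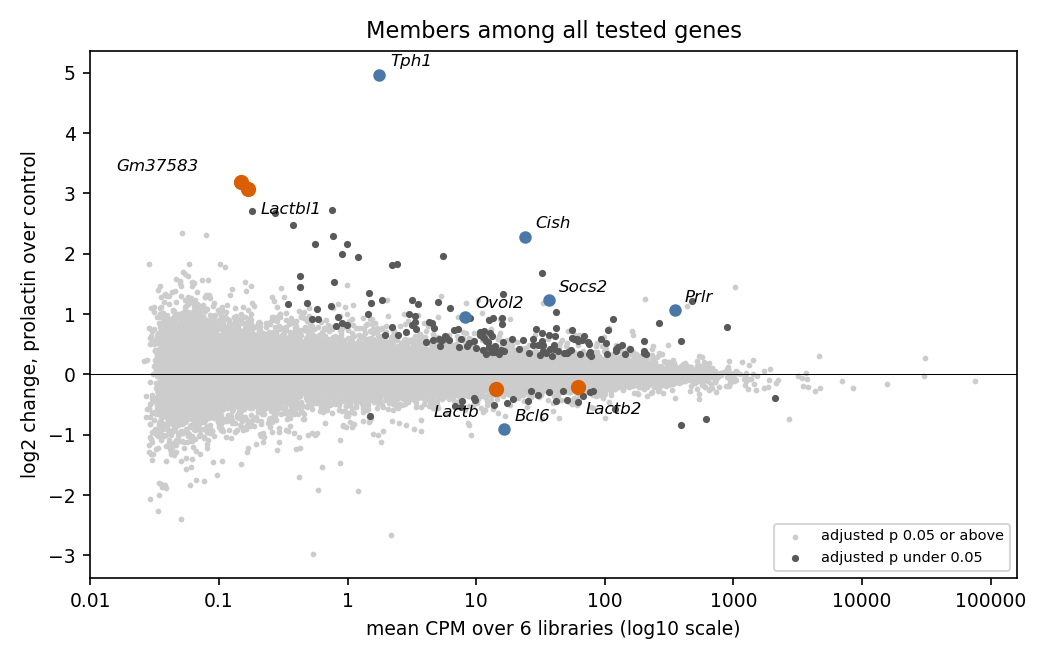
Log2 change (y axis) against mean CPM over the 6 libraries (x axis, log10 scale) for all 23924 tested genes, with the 4 members in orange and 6 genes of the prolactin response in blue. Gm37583 and Lactbl1 sit at the upper left, at 3.19 and 3.06, below Tph1 at 4.97, while Lactb and Lactb2 sit near 0.

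The reads of the Lactbl1 locus were divided between the rows of Lactbl1 and Gm37583 in nearly the same way in each library. Per Lactbl1 read there were 0.792, 0.70 and 1.00 Gm37583 reads in the control replicates and 0.935, 1.00 and 0.750 in the prolactin replicates. The means were 0.831 ± 0.154 and 0.895 ± 0.130 (SD, n = 3 per group), a difference smaller than either spread. Over all libraries Gm37583 took 228 of the 492 reads of both rows, or 46.3% (95% exact Clopper-Pearson interval 41.9% to 50.9%, counting error only). Its exon makes up 45.7% of their joint exon length, inside that interval. In the prolactin libraries the share was 46.7% of 420 reads and in control 44.4% of 72 reads. Counts per gene do not show whether any read or pair spans the 471 bases between the rows, so whether they are 1 transcript was not tested.

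**Figure D3:**
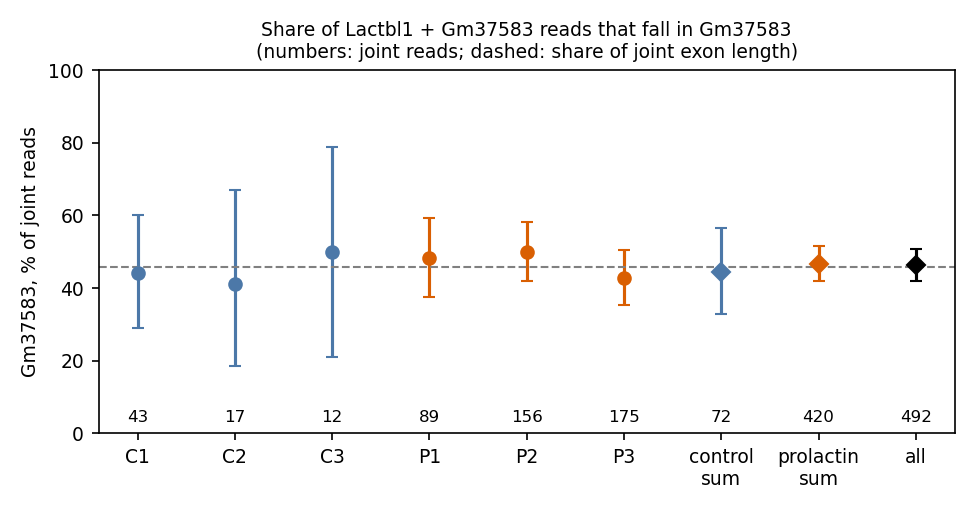
Share of the joint Lactbl1 and Gm37583 reads that fell in Gm37583 (y axis, percent) per library (C1 to C3 control, P1 to P3 prolactin), per group and over all libraries, with 95% exact intervals; numbers are joint reads and the dashed line is the share of joint exon length, 45.7%. Each interval includes the dashed line, and those of control replicates 2 and 3 are wide, with 17 and 12 reads.

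Lactb, the mitochondrial serine relative of Lactbl1, was expressed at a moderate level and was slightly lower in prolactin. It stood at 15.1, 16.7 and 14.99 CPM in control replicates 1, 2 and 3, and at 13.7, 12.9 and 12.8 CPM in the prolactin replicates. The groups did not overlap, although control replicate 3 and prolactin replicate 1 lay close together. The means were 15.6 ± 1.0 and 13.1 ± 0.5 CPM (SD, n = 3 per group), a log2 change of -0.25 (SE 0.068), or 84.1% of the control level.

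Lactb2, the mitochondrial endoribonuclease, was the most abundant of the 4 genes and also slightly lower in prolactin. Its control libraries were within 1.02-fold of each other, at 65.9, 66.8 and 65.5 CPM, and the prolactin libraries stood at 55.8, 57.0 and 58.6 CPM. There was no overlap between the groups. The means were 66.1 ± 0.7 and 57.1 ± 1.4 CPM (SD, n = 3 per group), a log2 change of -0.21 (SE 0.047), or 86.5% of the control level.

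Per length, the genes fell into a well-expressed and a barely expressed pair. Levels between genes are compared as RPKM, reads per 1000 bases of exon and 1000000 scaled reads. In control these were 14.5 ± 0.2 for Lactb2, 7.68 ± 0.49 for Lactb, 0.0117 ± 0.0038 for Lactbl1 and 0.0112 ± 0.0027 for Gm37583 (SD, n = 3). In prolactin they were 12.5 ± 0.3, 6.46 ± 0.23, 0.103 ± 0.032 and 0.108 ± 0.031 RPKM in the same gene order. Lactb2 and Lactb differed beyond their spread in both groups, while Lactbl1 and Gm37583 did not. Lactb2 exceeded 83.6% of tested genes and Lactb 72.4% in mean RPKM, and Lactbl1 exceeded 10.8%. The Lactbl1 level was 0.153% of that of Lactb in control and 1.59% in prolactin. In whole islets, a low level in all cells and a higher level in few cells cannot be told apart, nor can fewer cells of a type and less RNA per cell.

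The calls on Lactb and Lactb2 depended on the test. Nothing is read from the calls on any of the 4 genes, since this contrast was used in choosing them. In the edgeR quasi-likelihood test over all genes, at an adjusted p under 0.05, Lactbl1 and Gm37583 were past the threshold as higher, where 0.652% of tested genes were, and 0 of the 4 were past it as lower, where 0.104% were. In the authors' deposited table, Lactb and Lactb2 had adjusted p-values under 0.05, as had 5.71% of the genes with one, and Lactbl1 and Gm37583 had none listed. That table gave log2 changes of 3.09 for Lactbl1, 3.22 for Gm37583, -0.25 for Lactb and -0.21 for Lactb2. Groups that did not overlap, seen for all 4, were seen for 21.6% of tested genes.

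The neighbours of Lactbl1 were chosen by position alone. Among the 7 other genes within 100 kb, 4 had enough reads, and 0 passed the edgeR test. Ephb2 was higher at an unadjusted p under 0.05, as were 7.78% of tested genes, and was called in DESeq2, as were 5.71% of its genes with an adjusted p, while limma-voom called 0. Kdm1a, a histone H3 lysine 4 demethylase, has its 5′ start 19.9 kb upstream of Lactbl1, on the opposite strand. Its means were 127 ± 10 (control) and 137 ± 7 CPM (prolactin; SD, n = 3 per group, adjusted p = 0.507). Luzp1, a cytoskeletal leucine zipper gene 67.8 kb upstream, stood at 49.95 ± 1.75 and 48.1 ± 0.9 CPM (adjusted p = 0.679). The pseudogene Gm12987 was near 0.06 CPM in both groups. Ephb2, a receptor tyrosine kinase for ephrin-B ligands, lies 5470 bases beyond Gm37583 on the opposite strand. Its groups did not overlap. The control mean was 16.6 ± 1.0 CPM and the prolactin mean 20.6 ± 0.7 CPM, a log2 change of 0.31 (SE 0.064, adjusted p = 0.0717) that passed in 3 of the 16 alternative fits. The gap between Lactbl1 and Ephb2 in log2 change was not itself tested. Around Lactb and Lactb2, 0 of the 6 tested neighbours within 100 kb passed, and 0 did in DESeq2 and in limma-voom. At an unadjusted p under 0.05, 2 of the 6 were higher, both near Lactb, where 7.78% of tested genes were.

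**Figure D4:**
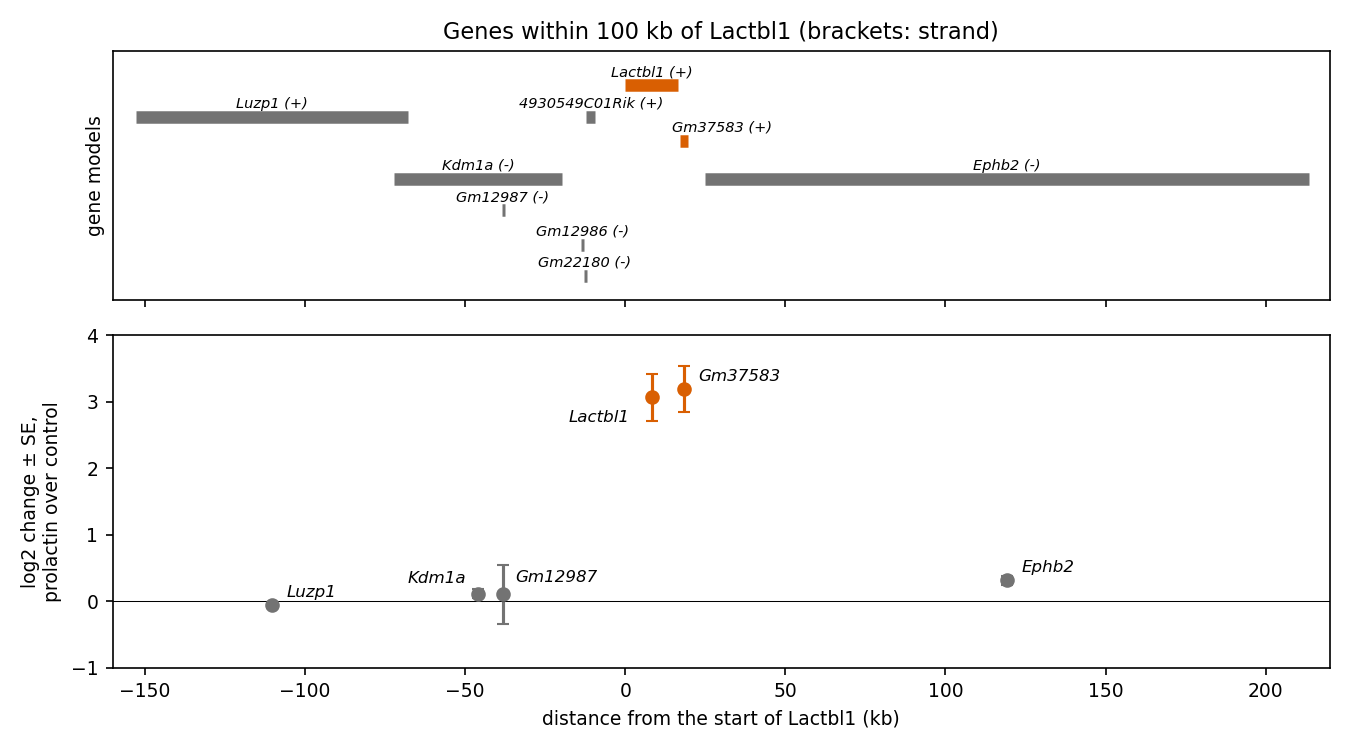
Gene models within 100 kb of Lactbl1 (top, x axis in kb from the Lactbl1 start) and the log2 change ± SE of those with enough reads (bottom). Lactbl1 and Gm37583 lie near 3, and Luzp1, Kdm1a, Gm12987 and Ephb2 between -0.05 and 0.31.

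The promoters of the serine pair are shown because Lactbl1 and Lactb are relatives whose levels differ widely. RefSeq sequences on GRCm38.p6 were at hand for these 2 of the 4 genes. Each is the 250 bases before the annotated start, 5′ to 3′ on the gene's strand, with CG dinucleotides in capitals, at chr4:136622371-136622620 (plus) for Lactbl1 and chr9:66975485-66975734 (minus) for Lactb.
Lactbl1: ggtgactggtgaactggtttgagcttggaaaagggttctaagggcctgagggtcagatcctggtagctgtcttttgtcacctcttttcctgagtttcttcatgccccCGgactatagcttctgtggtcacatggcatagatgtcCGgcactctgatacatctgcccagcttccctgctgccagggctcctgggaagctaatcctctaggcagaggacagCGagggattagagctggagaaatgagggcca
Lactb: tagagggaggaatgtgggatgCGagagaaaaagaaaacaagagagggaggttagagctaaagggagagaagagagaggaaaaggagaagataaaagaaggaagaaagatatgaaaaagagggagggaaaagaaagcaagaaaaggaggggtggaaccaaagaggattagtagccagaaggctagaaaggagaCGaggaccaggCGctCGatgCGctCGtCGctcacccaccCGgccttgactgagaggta
Lactbl1 has 3 CG dinucleotides and Lactb 8, against a median of 6 over 32851 promoters of this length, and both are within the common range: 29.0% of promoters have fewer than Lactbl1 and 57.0% fewer than Lactb. In Lactb, 7 of the 8 lie in the 60 bases next to the start, and the 190 bases before these are 87.4% purine, against 43.2% in Lactbl1. The GC content was 53.6% and 48.8%. In the window from 250 bases before to 50 after the start, on both strands, neither gene holds TTCNNNGAA, the STAT5 pattern, which 8.30% of all such windows hold, nor its stricter form TTCCNGGAA (1.15%), nor CCGTTA, a pattern of OVO factors such as OVOL2 (2.76%). This says only that those letters are not in this window.

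The proteins, translated from the GENCODE vM21 coding sequences, have 581 residues for Lactbl1, 551 for Lactb and 288 for Lactb2. In a local alignment Lactbl1 and Lactb shared 68 of 204 aligned residues (33.3%). Lactbl1 and Lactb2 aligned over 10 residues and Lactb and Lactb2 over 50. The first SxxK of Lactbl1, at residue 142, was aligned to an SxxK of Lactb at residue 162, and its other, at residue 240, to residue 310 of Lactb, which begins no SxxK. YxN or YxS, another motif of serine beta-lactamases, was found in Lactbl1 at residues 171 and 312, aligned to residues 190 and 379 of Lactb, neither of which begins that motif in Lactb. HxHxDH was found once in Lactb2, at residue 77, and in neither of the other two.

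Of 17 metallo-beta-lactamase fold genes, Lactb2 included, 0 passed the edgeR test in either direction. The groups overlapped for 10 of the 17. They did not overlap for the rest, a larger share than the 21.6% of all tested genes without overlap. The log2 changes of the 17 had a median of -0.08, with 14 of 17 negative (13 of 16 without Lactb2). Over all tested genes the median was 0.0004 and 50.1% were positive. Those include 7567 genes averaging under 0.5 CPM, whereas the lowest mean in this list was 4.07 CPM (Mblac1). The list was not set against genes of like level, so whether its lean is its own was not tested. At an unadjusted p under 0.05, 4 of 17 had a negative change and 0 a positive one, where 6.68% and 7.78% of all tested genes did. Lactb2, chosen with its prolactin difference known, is among these 4 and among the genes without overlap. DESeq2 called 1 of 17 (Lactb2), where it called 5.71% of genes with an adjusted p, and limma-voom called 0, where it called 0.74% of tested genes. Pnkd, a glyoxalase II-like protein, was at -0.22 on the log2 scale (SE 0.070, adjusted p = 0.190). The Integrator subunit Ints9 had -0.13 (SE 0.053, adjusted p = 0.309). The changes ran from -0.22 to 0.08, all far smaller than the 3.06 of Lactbl1.

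Genes for the synthesis of phosphatidylserine and phosphatidylethanolamine, the pathway LACTB is linked to, gave 0 of 12 past the threshold. At an unadjusted p under 0.05, 2 of 12 were lower and 0 higher, where 6.68% and 7.78% of all tested genes were. DESeq2 called 0, where it called 5.71% of genes with an adjusted p, and limma-voom 0, where it called 0.74%. The median log2 change of the list was -0.08 with 10 of 12 negative, where 50.1% of all tested genes were positive. Its genes averaged 2.27 CPM (Etnk2) or more, and genes of like level were not set apart in that comparison. Pisd, the decarboxylase itself, named here for its link to LACTB, had means of 23.6 ± 0.6 (control) and 24.5 ± 0.6 CPM (prolactin; log2 change 0.05, SE 0.052, adjusted p = 0.712). Triap1, a partner of mitochondrial lipid transfer proteins, was at -0.18 on the log2 scale (adjusted p = 0.194), the phosphatidylserine synthase Ptdss1 -0.15 (adjusted p = 0.316) and the ethanolamine kinase Etnk2 -0.23 (adjusted p = 0.351). With control replicate 3 left out, Ptdss1 passed the test (-0.21, adjusted p = 0.0471).

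Genes of mitochondrial RNA synthesis, processing and decay, where LACTB2 acts, gave 0 of 19 past the threshold. At an unadjusted p under 0.05, 3 of 19 were lower and 0 higher, where 6.68% and 7.78% of all tested genes were. The 3 include Lactb2, which was chosen with its prolactin difference known. DESeq2 called 1, which was Lactb2, where it called 5.71% of genes with an adjusted p. In limma-voom 0 were called, where 0.74% of tested genes were. The median log2 change was -0.04, with 14 of 19 negative, where 50.1% of all tested genes were positive. Without Lactb2 the median was -0.03, with 13 of 18 negative. The lowest mean in the list was 3.21 CPM (Mterf1a), and here too genes of like level were not set apart. Hsd17b10, a subunit of mitochondrial RNase P, had -0.22 (SE 0.082, adjusted p = 0.282), and -0.30 with control replicate 3 left out, where it passed (adjusted p = 0.0416), as did Lactb2. Pnpt1, the polynucleotide phosphorylase of the mitochondrial degradosome, had -0.12 (SE 0.052, adjusted p = 0.319).

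**Figure D5:**
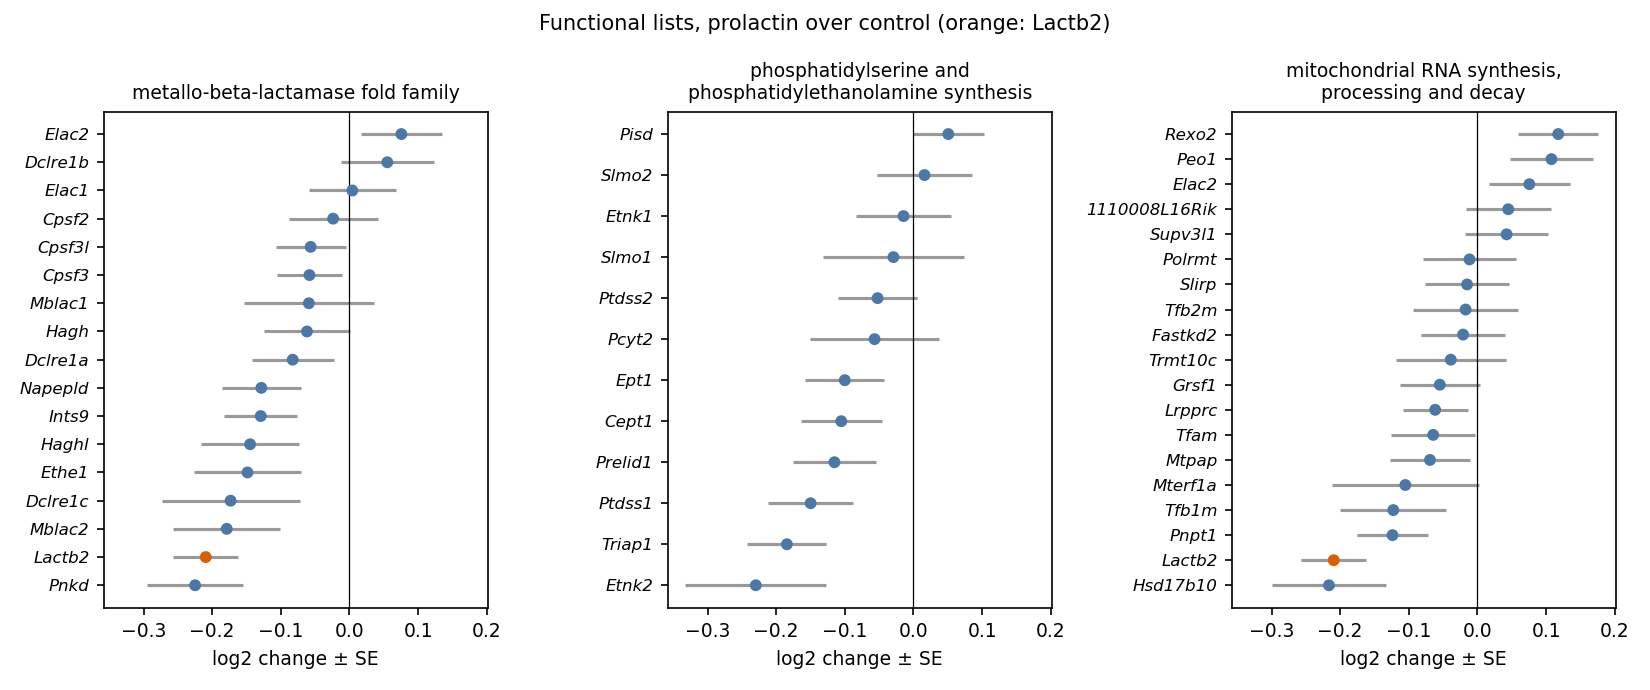
Log2 change ± SE (x axes) of each gene in the metallo-beta-lactamase fold list, the phosphatidylserine and phosphatidylethanolamine list and the mitochondrial RNA list, with Lactb2 in orange. All points lie between -0.23 and 0.12, and Lactb2 is the second lowest in both lists that hold it.

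The genes whose pattern was most like that of Lactbl1 over the 6 libraries were sought by the Euclidean distance of log2 CPM, centred for each gene, among 14796 candidates averaging 1 CPM or more. Since Lactbl1 was itself selected with its prolactin difference known, genes like it differ between the groups by choice, and their values are a description without a test. The 5 nearest were Cish, an inhibitor of STAT5 signalling (distance 1.44), the scavenger receptor gene Stab2 (1.71), the palmitoyltransferase gene Zdhhc22 (1.79), the eotaxin gene Ccl11 (1.88) and the axonemal dynein gene Dnah8 (1.92). Gm37583, below that level, was nearer than all 5 at 0.50. Zdhhc22 averaged 0.495 ± 0.067 CPM in control and 1.92 ± 0.09 with prolactin (SD, n = 3 per group), a log2 difference of 1.95 (SE 0.15). Dnah8 averaged 0.976 ± 0.125 and 3.44 ± 0.64 CPM (a log2 difference of 1.82, SE 0.17), with prolactin replicate 1 the lowest of its group, at 2.70 CPM, as for Lactbl1. Ccl11 averaged 1.06 ± 0.42 and 3.82 ± 0.78 CPM (a log2 difference of 1.84, SE 0.27), with prolactin replicate 1 the highest of its group.

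The libraries held islet RNA, with some shifts in other cells' markers. Beta-cell markers summed to between 116699 and 143150 CPM in control and between 118737 and 124130 CPM in prolactin. Of these 9, 0 passed the test, and 0 passed in DESeq2 and in limma-voom. At an unadjusted p under 0.05, 1 of the 9 was lower, where 6.68% of tested genes were. Fibroblast, stellate-cell and pericyte markers summed to 773 to 960 CPM in prolactin against 385 to 559 CPM in control, and 3 of 10 were past the threshold as higher, where 0.652% of tested genes were. Endothelial markers summed to 326 to 336 against 280 to 324 CPM, with 1 of 7 past it as higher. Delta-cell and PP-cell markers summed to 5654 to 7016 against 8015 to 8479 CPM. Of these 5, the somatostatin gene Sst passed as lower (log2 change -0.40, adjusted p = 0.0488), where 0.104% of tested genes did, Ppy had -0.74 (adjusted p = 0.0708), and Hhex, Pyy and Rbp4 had overlapping groups, with Rbp4 at 0.09. Acinar markers ranged from 394 to 2358 CPM within control, and 0 markers of any list were at 0 in all libraries. Their part in the levels of Lactbl1 and its relatives was not tested. Prolactin replicates 2 and 3 stood closer to each other than any other pair of replicates, with a chi-square per gene of 9.14 against 121 to 352, but further apart than sampling noise. With these libraries summed into 1, the log2 change was 2.96 for Lactbl1, 3.10 for Gm37583, -0.24 for Lactb and -0.22 for Lactb2.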

How the data were processed

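Per the file headers, featureCounts 2.0.3 produced the deposited counts, whole read numbers for each gene name of GENCODE vM10. The submitters' processing notes name mm10, SAMtools 1.21, Subread 2.1.0 and DESeq2. For the aligner, a name was not given in the sources used here. In featureCounts the command sets neither strand nor the counting of pairs, so both mates of a pair can count and antisense reads are not told apart. The authors' deposited comparison table holds, per the file headers, log2 fold changes with standard errors, a test statistic (a score), p-values and adjusted p-values, and a mean signal per gene.

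From the counts, edgeR 4.0.16 (R 4.3.3) used TMM scaling, filterByExpr (at least 10 reads, total 15) and a two-sided quasi-likelihood test of prolactin against control over all 23924 genes, with Benjamini-Hochberg adjustment at 0.05. CPM and RPKM use TMM-scaled totals. The SE comes from the test statistic. The procedure was tested on simulated data. The unadjusted p under 0.05 counted beside a 0 comes from the same test.

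The genes and lists were chosen with earlier results of these data known. Named genes were the 4 members, the 3 smallest p-values per functional list, tested genes within 100 kb of Lactbl1, called genes near Lactb or Lactb2, and the 5 nearest patterns to Lactbl1; Pisd, the delta-cell and PP-cell markers and the DESeq2 and leave-one-out calls were named after their values were seen, and 6 known response genes set the scale in a plot. Proteins were translated from GENCODE vM21 and aligned with Biopython 1.88 (BLOSUM62, gap costs 11 and 1). Alternatives were other scalings, filters and tests (DESeq2 1.42.0, limma-voom of limma 3.58.1), the replicate block, leaving out each library, prolactin replicates 2 and 3 summed, and halved counts; the sum of Gm37583 and Lactbl1 reads was added after the data were seen.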

Additional observations from a re-analysis of the deposited data

How the results depend on the processing

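Over all alternatives run, each member kept its direction and moved by less than the spread between replicates: the log2 change ran from 2.86 to 3.34 for Lactbl1, 3.01 to 3.45 for Gm37583, -0.28 to -0.20 for Lactb and -0.23 to -0.19 for Lactb2. A filter of 1 CPM in 3 libraries removed Lactbl1 and Gm37583, so it gives no value for them. The Gm37583 reads per Lactbl1 read stayed between 0.746 and 0.896 in control and between 0.842 and 0.967 in prolactin without single libraries. Identity from a global alignment was 29.1% for Lactbl1 and Lactb, close to the 28.6% of Lactbl1 and Lactb2 and the 23.1% of Lactb and Lactb2, so that identity depends on the length aligned; the local values were 33.3%, 60% and 28%.

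The numbers of called genes moved more. Against 156 higher and 25 lower genes, no filter gave 470 and 127, DESeq2 776 and 303, summing prolactin replicates 2 and 3 gave 42 and 2, and 46 were lower with the filter of 1 CPM. Without single libraries the counts ran from 39 (without prolactin replicate 2 or 3) to 342 (without control replicate 3) higher and from 1 (without prolactin replicate 2) to 234 (without control replicate 3) lower. The metallo-beta-lactamase and mitochondrial RNA lists each went from 0 to 1 called gene in DESeq2, and without single libraries the lists had 0 to 1, 0 to 1 (lipid list) and 0 to 2 (mitochondrial RNA list). The neighbours went from 0 to 1, Ephb2, with no filter, in DESeq2 and with the replicate block. With the replicate number as a block, 464 genes were higher and 134 lower. The numbers pair the libraries poorly: deviations from the group means of same-numbered libraries correlated at 0.437, 0.29 and -0.0521, and control replicate 2 correlated better with prolactin replicate 3 (0.36). The cause of these moves was not tested. Depth limits the precision of Lactbl1 and Gm37583, with 6 to 100 reads a library.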

Other observations

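With the reads of Gm37583 added to those of Lactbl1, an alternative chosen after seeing the data, the log2 change of the joint row was 3.14 (SE 0.31), between those of the separate rows. Of the 7567 tested genes with a mean under 0.5 CPM, 9 were past the edgeR threshold as higher and 0 as lower. Lactbl1 and Gm37583 are 2 of the 9, but both were chosen with this contrast known, so nothing is read from that. In the order of all tested genes by log2 change, the chitinase-like gene Chil4 (2.71, SE 0.34) and the prokineticin gene Prok1 (2.68, SE 0.33) came next among genes with a name, both also under 0.5 CPM on average, at 0.180 and 0.271 CPM.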
